A study of Mus musculus and synthetic construct with 30 samples.

Results

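The transcriptomes of 2 embryonic organs, the kidney and the ventral forebrain, were compared in mouse embryos at E14.5, an embryonic day in the middle of organ formation. All 6 kidney libraries were set against all 4 libraries of GE/OB, which is ganglionic eminence with olfactory bulb, dissected under the microscope, and the members are the autosomal genes in the authors' tables. Of 26759 quantified genes, 24960 were placed on an autosome, 15213 of these had enough counts to be tested, and the other 9747 had not. The 10 libraries belong to a set of 16 that the study made to ask what the *Peril* locus, a long noncoding RNA gene on chromosome 3, does in mouse tissues. They were poly(A)-selected, paired-end and not strand-specific, and the stem cell libraries of the study did not enter the counts below. The kidneys came from litter 43, with 3 wild-type (WT 1, WT 3 and WT 8) and 3 knockout (KO 7, KO 9 and KO 10) embryos. GE/OB came from litter 46, with WT 1 and WT 3 and with KO 2 and KO 7, so the litter and the tissue cannot be told apart. All embryos were offspring of heterozygous parents of strain Periltm1.1Vlcg, a mixture of 129S6 and C57BL/6 (backcross generation N 3), and in the KO the body of *Peril* was exchanged for a lacZ reporter. In GE/OB the WT embryos were both males and the KO embryos both females, whereas the kidneys held 3 males (WT 1, KO 7 and WT 8) and 3 females (WT 3, KO 9 and KO 10). Genotype was therefore a covariate of the comparison.

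At this stage the kidney grows by exchange between an epithelial tree, the ureteric bud, and the mesenchyme around its tips. The mesenchyme holds nephron progenitors, which turn into epithelial vesicles and then into nephrons, and an outer stroma that forms interstitium and mural cells. The ganglionic eminences are the proliferative swellings of the ventral forebrain, where radial glia give rise to GABA-producing interneurons and striatal neurons, many of which migrate to the cortex and olfactory bulb. The olfactory bulb also contains glutamatergic projection neurons of pallial, that is dorsal, origin.

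Library depth was 19263097 to 45924887 expected counts in kidney and 17594150 to 32146978 in GE/OB. A level of at least 1 TPM (transcripts per 1e6 transcripts) was reached by 13055 to 13342 genes in kidney and by 13858 to 14083 in GE/OB. Mitochondrial transcripts took 5.9% to 7.46% of the counts in kidney and 2.31% to 2.86% in GE/OB. RNA integrity in the authors' sample sheet was also higher for GE/OB than for kidney, and the part of either in the results was not tested. The targeted gene was listed at 0 counts in all 10 libraries, WT included. The LacZ transcript stood at 44.4 and 45.8 TPM in KO GE/OB and at 0.10 and 0 TPM in WT GE/OB, but at 0.08 to 0.47 TPM in kidney with no separation of KO from WT, so in kidney it does not check the genotype labels. Among the kidneys WT 3 stood apart in several small signals. Its *Sox2*, at 0.89 TPM, *Dlx1*, at 0.73 TPM, *Dlx2*, at 0.74 TPM, and *Six3*, at 0.30 TPM, were the highest of the 6, and its *Neurod2*, at 0.10 TPM, and *Nkx2-1*, at 0.05 TPM, were the highest too, while *Neurod6* was at 0 TPM. Its summed globin and erythroid genes (15300 TPM, against 7076 to 10410 in the other kidneys) and neural crest genes (59.7 TPM, against 35.3 to 44.7) were also the highest. Without this library 3475 and 3355 genes were called higher in kidney and in GE/OB, in place of 3582 and 3355. In bulk tissue, a lower level can mean fewer cells of a type or less RNA per cell, and these cannot be told apart here.

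The organs differed in most of their transcriptome. At an adjusted p under 0.05 (edgeR quasi-likelihood test, Benjamini-Hochberg adjustment over all tested genes), 13243 autosomal genes, 87.1% of those tested, differed in one direction or the other. A gene was called where it also differed by a log2 fold change (log2FC, kidney minus GE/OB) of at least 1. This left 3582 genes higher in kidney, a background rate of 23.5%, and 3355 genes higher in GE/OB, a rate of 22.1%. The median log2 fold change over all tested genes was 0.04, and the central 90% of genes lay between -4.16 and 3.97. Beyond a log2 difference of 5 stood 503 genes in the direction of kidney and 545 in the direction of GE/OB. The TPM ranges of the organs did not overlap for 93.1% of the called genes and for 79.6% of all tested genes, so a lack of overlap between 6 and 4 libraries was by itself the rule.

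**Figure D1:**
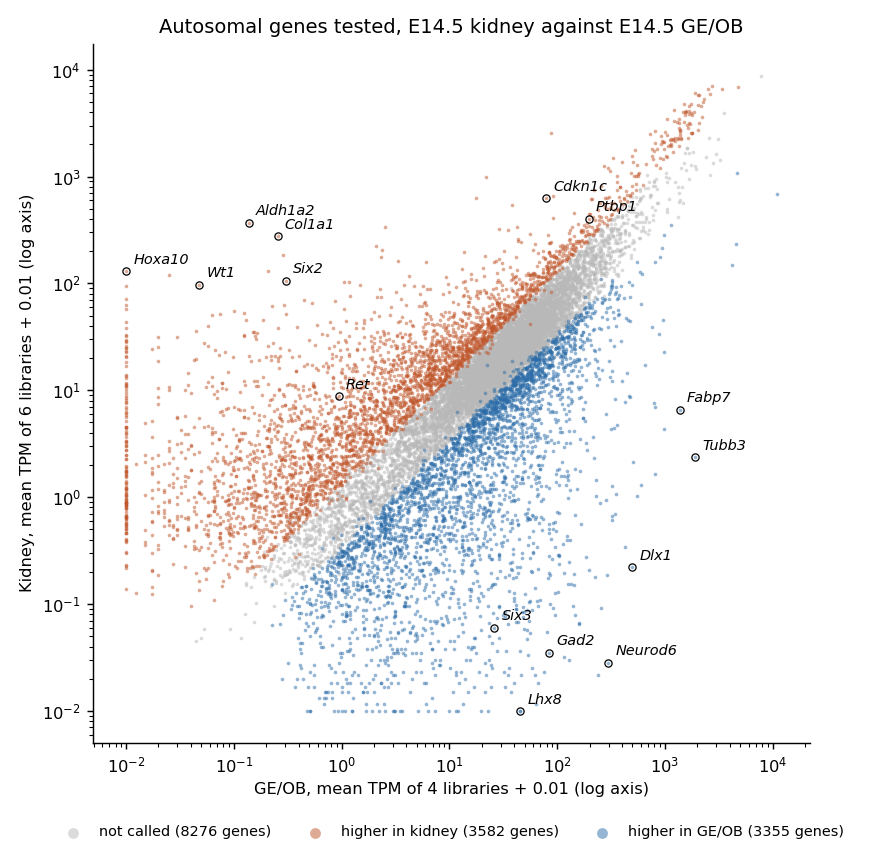
Each point is 1 tested autosomal gene, with its mean TPM over the 4 GE/OB libraries on the x axis and over the 6 kidneys on the y axis (both log axes, 0.01 TPM added), coloured by call. Genes higher in kidney (3582) lie up to the left edge, where GE/OB is at 0, and genes higher in GE/OB (3355) down to the lower edge, with *Fabp7* and *Tubb3* among the most abundant of these.

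TPM values and fitted fold changes were not on the same scale between these organs. Over 11112 autosomal genes with at least 1 TPM in every library, the median log2 ratio of TPM was -0.54, against 0.06 for the median fitted fold change of the same genes. For a typical gene the TPM ratio was thus lower by 0.60 on the log2 scale, a factor of 1.51. Kidney TPM was weighted to shorter transcripts, since the mean effective length per unit of TPM was 1268 to 1352 bases in kidney and 1890 to 1965 in GE/OB. On the TPM scale (limma on log2(TPM + 0.5)) 1968 genes were called higher in kidney and 4990 higher in GE/OB, so that 28.3% of the calls pointed to kidney instead of 51.6%. Of the 6937 genes called on the count scale, 5162 were also called on the TPM scale in the same direction and 0 in the opposite one. Levels below are given in TPM for each library, with the lowest, median and highest of the 6 kidneys, and with GE/OB in the order WT 1, KO 2, WT 3 and KO 7. Fold changes are from the count scale with their standard error.

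**Figure D2:**
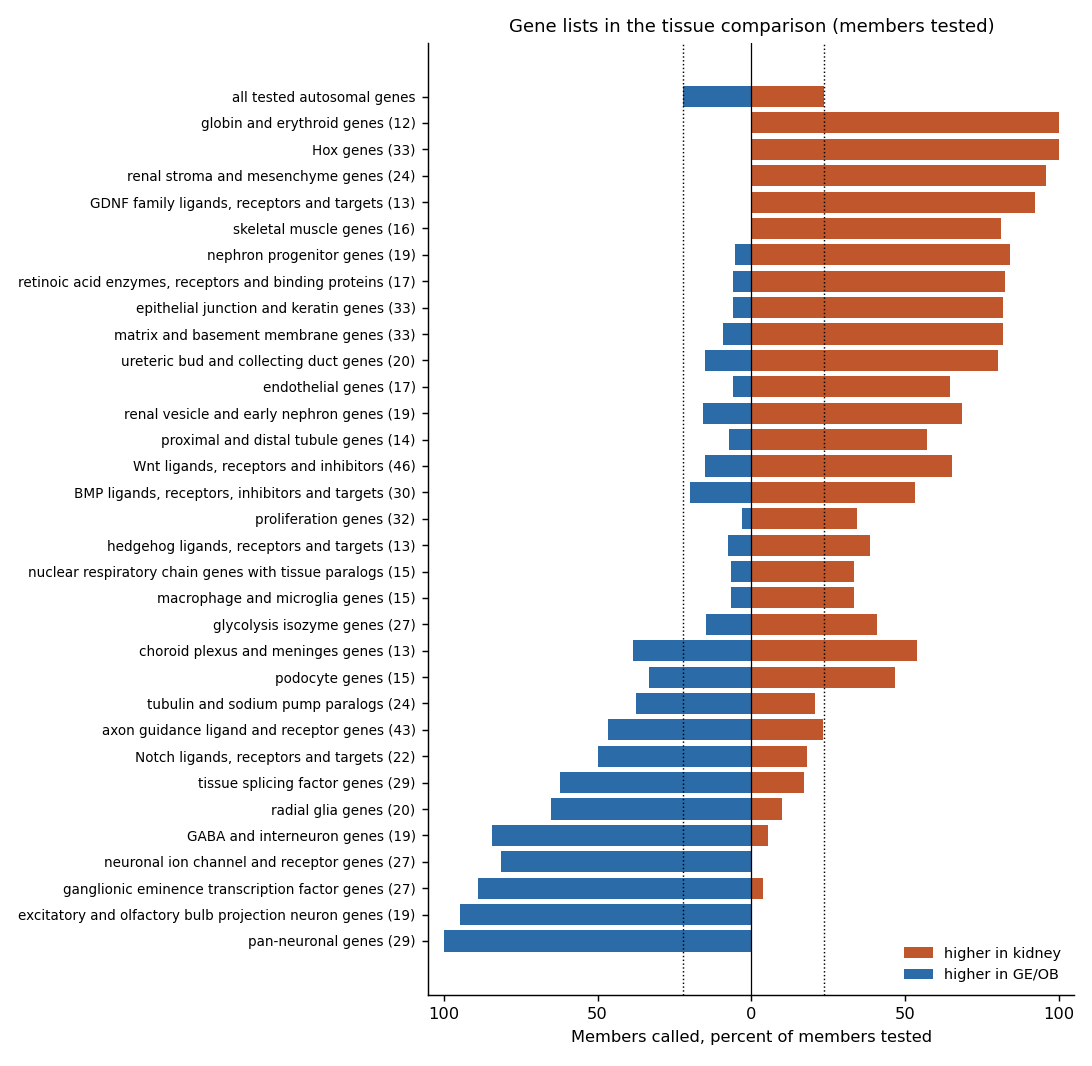
For each list with at least 12 tested members (number in brackets, the mixed list of transcription factor families left out), bars give the percent of tested members called higher in kidney (to the right) and higher in GE/OB (to the left), ordered by the first share minus the second. Dotted lines mark the rates over all tested autosomal genes, 23.5% and 22.1%, and the lists run from globin and Hox genes, all on the kidney side, to pan-neuronal genes, all on the GE/OB side.

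Hox genes, the homeobox genes that give cells their position along the head-to-tail axis, were all on the kidney side. Of 38 autosomal Hox genes 33 were tested, and 33 were called higher in kidney. *Hoxd4* was not found by its symbol among the quantified genes and is outside all Hox counts and sums given here. The 33 have a median log2 fold change of 11.68, or 9.52 where the 25 genes with 0 counts in GE/OB are set at a bound of 3 counts over the 4 libraries. Summed over the family, kidney held 696 to 884 TPM and GE/OB 0.06 to 0.46 TPM. *Hoxa10* had the highest level of the family at 112 to 142 TPM in kidney (median 132) and 0 TPM in all 4 GE/OB libraries, at least 4360-fold higher in kidney (edgeR adjusted p = 1.36e-11). *Hoxd11*, which with *Hoxa11* is needed for ureteric branching, reached 80.8 to 107 TPM in kidney (median 97.3) and 0 TPM in all 4 GE/OB libraries, at least 2810-fold higher. *Hoxa11* itself was at 38.8 to 47.1 TPM in kidney (median 44.7) and 0 TPM in all 4 GE/OB libraries and at least 2170-fold higher. The highest member of the *Hoxc* cluster, *Hoxc10*, had 57.5 to 68.4 TPM in kidney (median 61.8) with 0 counts in GE/OB. No library of GE/OB overlapped the kidney range for any of these 4 genes.

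Each of the 4 clusters contributed. The *Hoxa* cluster on chromosome 6 (10 of 11 genes tested) summed to 255 to 312 TPM per kidney, *Hoxb* on chromosome 11 (8 of 10) to 162 to 223 TPM, *Hoxc* on chromosome 15 (7 of 9) to 108 to 122 TPM, and *Hoxd* on chromosome 2 (8 of 8, without *Hoxd4*) to 171 to 232 TPM. The level also varied with position in the cluster. Genes of paralog group 1, at the 3′ end, summed to 1.38 to 2.15 TPM over the clusters, those of group 9 to 101 to 136 TPM, those of group 10 to 198 to 240.1 TPM and those of group 11 to 127 to 164 TPM. Past this peak the sums fell to 8.64 to 12.4 TPM for group 12 and to 0.36 to 0.99 TPM for group 13, the genes at the 5′ end. These ranges did not overlap between group 10 and any other group. The rise towards group 10 was not steady, with 48.7 to 81.2 TPM for group 3 and 23.0 to 30.2 TPM for group 5. Each sum covers 2 to 4 genes, so groups of unequal size are compared. *Hoxa13*, *Hoxb1*, *Hoxb13*, *Hoxc12* and *Hoxc13* had too few counts to be tested. The noncoding *Hoxa11os*, which runs antisense to *Hoxa11*, had 63.2 to 78.5 TPM in kidney (median 73.6) and 0 TPM in all 4 GE/OB libraries, but the libraries do not keep strand, so its reads cannot be told apart from those of *Hoxa11* where the genes overlap.

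**Figure D3:**
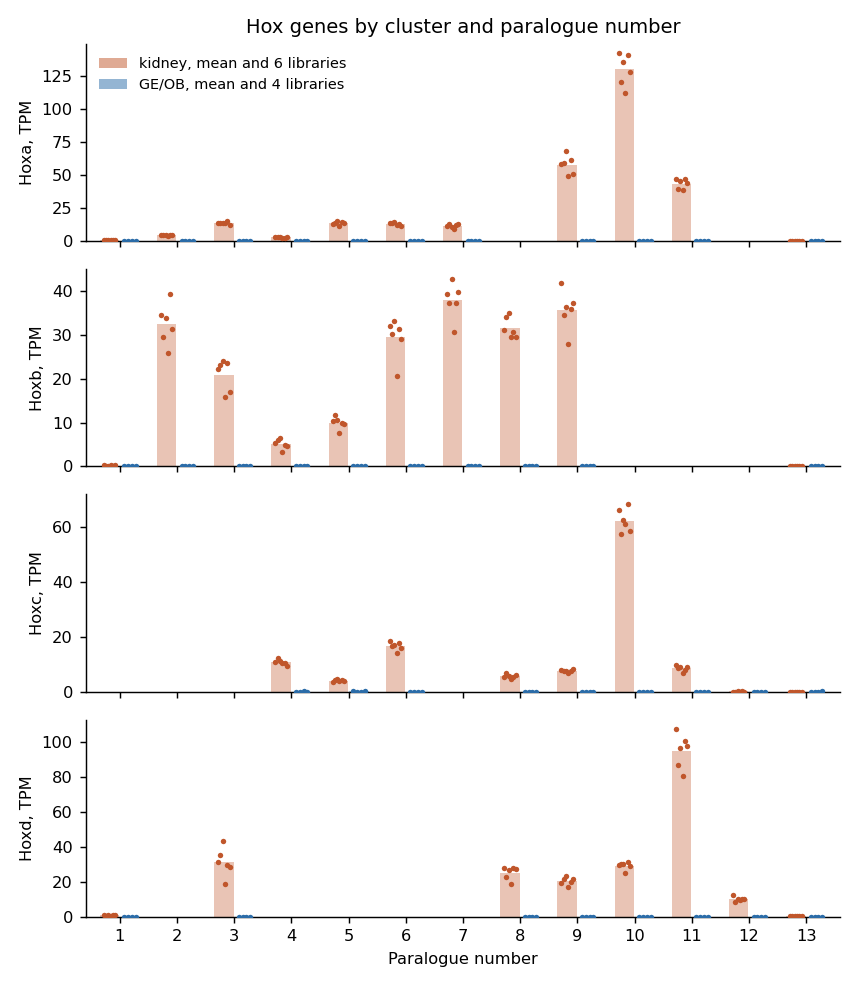
Mean TPM (bars, linear axes from 0) and the value of each library (points) for the Hox genes of the 4 clusters, by paralogue number, in kidney and GE/OB. The tallest kidney bars are *Hoxa10*, *Hoxd11* and *Hoxc10*, and the GE/OB points lie at or near 0 throughout.

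The homeobox genes *Six2* and *Six3* are neighbours on chromosome 17 and had opposite patterns. *Six2* keeps nephron progenitors undifferentiated, and *Six3* acts in anterior forebrain and eye patterning. *Six2* had 97.2 to 120.2 TPM in kidney (median 102) and 0.12, 0.23, 0.34 and 0.49 TPM in GE/OB (log2FC 9.13 ± 0.16, edgeR adjusted p = 4.12e-13). *Six3* had 23.8, 29, 26.7 and 24.9 TPM in GE/OB and 0 to 0.3 TPM in kidney (median 0) (log2FC -8.53 ± 0.49, edgeR adjusted p = 6.64e-09). The ranges overlapped for neither gene. In GRCm38 coordinates *Six3* spans chr17:85613608-85629302 on the plus strand and *Six2* spans chr17:85684277-85688274 on the minus strand, so that they point towards each other across 55.0 kb. The 300 bases around each annotated start (RefSeq, GRCm38.p6) are shown because this pair of adjacent genes was the most strongly opposed of all. Capitals mark the 50 bases from the start onward, and lower case the 250 bases before it. *Six3* is chr17:85620584-85620883, plus strand, from a start inside the span given above, and *Six2* is chr17:85688205-85688504, minus strand.
*Six3*: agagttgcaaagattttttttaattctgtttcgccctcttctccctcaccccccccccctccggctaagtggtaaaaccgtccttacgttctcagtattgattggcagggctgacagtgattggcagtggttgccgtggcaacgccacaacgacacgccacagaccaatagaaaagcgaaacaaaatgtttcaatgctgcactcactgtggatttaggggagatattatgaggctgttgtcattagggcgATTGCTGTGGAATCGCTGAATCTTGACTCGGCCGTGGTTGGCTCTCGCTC
*Six2*: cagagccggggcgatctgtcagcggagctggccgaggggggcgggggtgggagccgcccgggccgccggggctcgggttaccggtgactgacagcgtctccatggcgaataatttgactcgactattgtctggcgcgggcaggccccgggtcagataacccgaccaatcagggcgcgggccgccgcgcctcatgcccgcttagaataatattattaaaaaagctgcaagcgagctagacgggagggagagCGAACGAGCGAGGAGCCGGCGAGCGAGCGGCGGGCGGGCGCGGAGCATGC
The *Six2* stretch holds 37 CG dinucleotides at 67.3% G+C and the *Six3* stretch 14 at 50% G+C, beside a median of 7 CG dinucleotides over all 32851 RefSeq promoter sequences of this length and of 20 over the 11507 of them that belong to tested genes (75.6% of tested genes). This is a description of the sequence and says nothing about its use.

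The pair was picked after its values were seen, as the one with the largest fold change in the weaker of its members among 14090 pairs of adjacent, tested protein-coding genes. In 1055 of these pairs both genes were higher in kidney and in 731 both were higher in GE/OB. In 1174 pairs the genes went in opposite directions, which is 39.7% of all pairs with both genes called. Among tested protein-coding genes, 3392 were higher in kidney and 2901 higher in GE/OB. With totals this close, unrelated neighbours would be opposed about as often as not, so opposed pairs were not in excess. The next such pairs were *Lmo3* with *Rergl*, 911 kb apart, *Gpr139* with *Umod*, 278 kb apart, *Galnt5* with *Ermn*, whose spans overlap so that reads there cannot be told apart, and *Gjd2* with *Actc1*, 33.7 kb apart.

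Nephron progenitor genes were called higher in kidney in 16 of 19 tested cases, with 1 higher in GE/OB and 2 not called (median log2 fold change 4.66, against 0.04 over all genes). *Wt1*, a zinc finger factor needed for kidney formation, had 89.9 to 109 TPM in kidney (median 97.3) and 0.08, 0.03, 0 and 0.04 TPM in GE/OB (edgeR adjusted p = 1.18e-14). *Osr1*, which marks intermediate mesoderm and early nephron progenitors, had 21.8 to 33.6 TPM in kidney (median 29) and 0 TPM in all 4 GE/OB libraries, at least 1150-fold higher. *Gdnf*, the growth factor that draws out the ureteric bud, had 20.3 to 29.1 TPM in kidney (median 26.4) and 0.18, 0.2, 0.32 and 0.09 TPM in GE/OB (log2FC 7.63 ± 0.18, edgeR adjusted p = 3.61e-12). All 3 genes were high in every kidney and near 0 in every forebrain library. *Pax2*, a paired-box factor of the nephric lineage, had 34.2 to 53.5 TPM in kidney (median 47.6) and 0.18, 0.37, 0.12 and 0.03 TPM in GE/OB (log2FC 9.52 ± 0.21, edgeR adjusted p = 2.12e-12). *Meox1*, a homeobox factor, had 29 to 38.9 TPM in kidney (median 36.3) and 0.24, 0.18, 0.11 and 0.05 TPM in GE/OB (log2FC 8.42 ± 0.22, edgeR adjusted p = 5.92e-12). *Fgf20*, a survival factor for nephron progenitors, was lower at 3.03 to 4.05 TPM in kidney (median 3.78) but also at 0 counts in GE/OB, at least 107-fold higher in kidney. The X-linked marker *Cited1* was outside the autosomal comparison.

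Several genes used as nephron progenitor markers were also transcribed in the forebrain. *Sall1*, a zinc finger gene whose loss stops ureteric bud invasion, had 65.5 to 86.6 TPM in kidney (median 77.1) and 47.4, 44.8, 41 and 53.3 TPM in GE/OB (log2FC 1.32 ± 0.07, edgeR adjusted p = 1.65e-09), a difference that was below the fold minimum on the TPM scale. *Robo2*, a receptor for Slit proteins, had 56.6 to 99.8 TPM in kidney (median 79.2) and 87.8, 106, 102 and 90.3 TPM in GE/OB, with overlapping ranges and no detected difference (log2FC -0.03 ± 0.11, edgeR adjusted p = 0.831). *Lypd1*, which encodes a modulator of nicotinic receptors, stood on the forebrain side, at 22.7, 38.1, 30.1 and 32.8 TPM in GE/OB and 0.52 to 1.8 TPM in kidney (median 1.44) (log2FC -4.05 ± 0.24, edgeR adjusted p = 1.07e-08). *Dpf3* had a log2FC of -0.70 ± 0.10 and was not called.

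Among genes of the renal vesicle and early nephron, 13 of 19 were higher in kidney, 3 higher in GE/OB and 3 not called (median 3.57). *Pax8*, a paired-box factor of the nephric lineage, had 14.8 to 36.6 TPM in kidney (median 27.6) and 0, 0, 0.1 and 0.09 TPM in GE/OB (edgeR adjusted p = 4.46e-10). *Wnt4*, the signal that turns mesenchyme into epithelium, had 7.97 to 27.7 TPM in kidney (median 16.9) and 0.57, 1.29, 0.81 and 0.56 TPM in GE/OB (log2FC 4.95 ± 0.36, edgeR adjusted p = 5.38e-08). Neither of these genes overlapped between the organs, although the kidneys themselves varied widely. The 3 genes on the other side belong to neural programmes as well. *Pou3f3*, a POU factor with roles in distal nephron and cortex, had 184, 153, 157 and 173 TPM in GE/OB and 5.56 to 11.9 TPM in kidney (median 8.63) (log2FC -3.68 ± 0.13, edgeR adjusted p = 7.82e-11). *Dll1*, a Notch ligand, had 68.5, 56.5, 50.7 and 69.5 TPM in GE/OB and 2.23 to 9.83 TPM in kidney (median 7.21) (log2FC -2.48 ± 0.19, edgeR adjusted p = 1.03e-07). *Npy*, which encodes a neuropeptide, had 57.9, 61.6, 58 and 49 TPM in GE/OB and 1.98 to 6.76 TPM in kidney (median 4.55) (log2FC -3.05 ± 0.25, edgeR adjusted p = 2.26e-07). *Lhx1* was higher in kidney at 7.65 to 19.1 TPM in kidney (median 15.3) and 3.77, 4.38, 3.27 and 5.05 TPM in GE/OB (log2FC 2.43 ± 0.16, edgeR adjusted p = 2.95e-08).

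Ureteric bud and collecting duct genes were higher in kidney in 16 of 20 cases, higher in GE/OB in 3 and not called in 1 (median 4.11). *Cdh16*, the kidney-specific cadherin, had 20.7 to 46.9 TPM in kidney (median 31) and 0 TPM in all 4 GE/OB libraries, at least 2120-fold higher. *Wnt11*, secreted at bud tips, had 21.2 to 40.8 TPM in kidney (median 30.5) and 0.12, 0.22, 0.27 and 0 TPM in GE/OB (log2FC 8.47 ± 0.30, edgeR adjusted p = 8.11e-11). *Gata3*, a zinc finger factor of the nephric duct, had 9.98 to 14.6 TPM in kidney (median 11) and 0.2, 0.04, 0 and 0.03 TPM in GE/OB (log2FC 8.62 ± 0.25, edgeR adjusted p = 1.4e-11). Every kidney library lay above every GE/OB library for all 3 genes. *Wnt7b*, which patterns the medulla in kidney and is also a forebrain Wnt, was on the other side with 66.4, 55.4, 59.2 and 64.1 TPM in GE/OB and 1.79 to 5.96 TPM in kidney (median 4.24) (log2FC -3.28 ± 0.25, edgeR adjusted p = 7.91e-08). So was *Sox9*, a factor of bud tips and radial glia, at 35.3, 31.2, 29.8 and 41.4 TPM in GE/OB and 7.78 to 9.7 TPM in kidney (median 8.75) (log2FC -1.38 ± 0.10, edgeR adjusted p = 7.88e-08). *Grem1*, the Bmp antagonist, was at or below 1.31 TPM in all libraries and higher in GE/OB (log2FC -1.97 ± 0.29, edgeR adjusted p = 3.58e-05).

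The loop that drives branching, from the ligand *Gdnf* through the receptor *Ret* and the co-receptor *Gfra1* to the Etv factors, was on the kidney side at each level. In the list of GDNF family ligands, receptors and targets, 12 of 13 tested genes were higher in kidney, 0 higher in GE/OB and 1, *Gfra4*, not called (median 3.59). *Ret* had 6.02 to 10.8 TPM in kidney (median 9.16) and 0.92, 1.15, 0.93 and 0.73 TPM in GE/OB (log2FC 3.75 ± 0.15, edgeR adjusted p = 1.92e-10). *Gfra1* had 39.2 to 61.5 TPM in kidney (median 54.1) and 13.1, 16.5, 15.9 and 15.7 TPM in GE/OB (log2FC 2.41 ± 0.09, edgeR adjusted p = 1.17e-10). *Etv4*, a target of the pathway, had 53.4 to 68.7 TPM in kidney (median 64) and 3.07, 4.5, 4.06 and 4.1 TPM in GE/OB (log2FC 4.54 ± 0.10, edgeR adjusted p = 1.28e-12). The feedback inhibitors *Spry1* and *Dusp6* differed by 2.30 ± 0.08 and 2.48 ± 0.08 on the log2 scale (edgeR adjusted p = 8.5e-11 and 4e-11). The ranges of all 5 genes were separate. The other ligands were low in kidney, with a median of 1.33 TPM for *Nrtn* and 0.91 TPM for *Artn*.

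Genes of differentiated nephron segments ranged widely in level. Of 24 proximal and distal tubule genes, 14 were tested, of which 8 were higher in kidney, 1 higher in GE/OB and 5 not called (median 2.95). *Dab2*, an endocytic adaptor, had 22.5 to 29.6 TPM in kidney (median 25.3) and 2.68, 3.6, 2.62 and 2.47 TPM in GE/OB (log2FC 4.09 ± 0.15, edgeR adjusted p = 1.49e-10). The phosphate transporter *Slc34a1* was untested at 0 to 0.59 TPM in kidney. *Hnf4a*, a factor of the proximal tubule, had 0.26 to 4.35 TPM in kidney (median 1.99) and 0, 0.01, 0 and 0 TPM in GE/OB (edgeR adjusted p = 2.12e-06). *Lrp2*, the endocytic receptor megalin, had 0.65 to 1.58 TPM in kidney (median 1.1) and 1.87, 2.06, 1.41 and 2.28 TPM in GE/OB, with overlapping ranges, and was not called (log2FC -0.24 ± 0.13). Podocyte genes were divided, with 7 of 15 higher in kidney, 5 higher in GE/OB and 3 not called (median 0.41, or -0.41 on the TPM scale). The slit diaphragm gene *Nphs1* was untested, with a kidney median of 0.185 TPM. *Podxl*, the podocyte sialomucin podocalyxin, had 7.42 to 19.2 TPM in kidney (median 11) and 26.4, 27.9, 24.2 and 27.6 TPM in GE/OB and was not called (log2FC -0.61 ± 0.16).

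Podocyte genes higher in kidney included transcription factors of the developing mesenchyme. *Foxc2*, a forkhead factor, had 29.4 to 35.5 TPM in kidney (median 33.2) and 0.19, 0.15, 0 and 0.12 TPM in GE/OB (log2FC 8.66 ± 0.19, edgeR adjusted p = 1.98e-12). *Cdkn1c*, a cell cycle inhibitor, had 540.1 to 741 TPM in kidney (median 643) and 72.8, 72.9, 82.2 and 89 TPM in GE/OB (log2FC 3.59 ± 0.12, edgeR adjusted p = 4.23e-11). On the opposite side were genes that neurons or radial glia also use. *Ptpro*, a receptor phosphatase, had 42.1, 50.1, 42.3 and 39.1 TPM in GE/OB and 0.19 to 1.64 TPM in kidney (median 0.355) (log2FC -5.90 ± 0.38, edgeR adjusted p = 2.05e-08). *Magi2*, a scaffold of slit diaphragms and synapses, had 20.8, 25.7, 22.8 and 19.5 TPM in GE/OB and 0.79 to 1.14 TPM in kidney (median 0.97) (log2FC -3.86 ± 0.11, edgeR adjusted p = 1.65e-11). *Nes*, the intermediate filament of neural stem cells, had 163, 134, 137 and 196 TPM in GE/OB and 41 to 56 TPM in kidney (median 51.6) (log2FC -1.04 ± 0.10, edgeR adjusted p = 8.19e-07), and the call was lost without GE/OB WT 1 or KO 7 or without kidney WT 3 or KO 7 (log2FC -0.99, -0.93, -0.99 and -0.99).

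Renal stroma and mesenchyme genes were nearly uniform, with 23 of 24 higher in kidney, 0 higher in GE/OB and 1, *Fat4*, not called (median 5.39). *Aldh1a2*, which makes retinoic acid, had 329 to 405 TPM in kidney (median 375) and 0.09, 0.18, 0.05 and 0.19 TPM in GE/OB (log2FC 11.96 ± 0.17, edgeR adjusted p = 8.71e-14). *Tcf21*, a bHLH factor of mesenchyme, had 107 to 137 TPM in kidney (median 122) and 0, 0.06, 0 and 0 TPM in GE/OB (edgeR adjusted p = 4.31e-13). *Foxd1*, which defines the cortical stroma, had 58.1 to 90.1 TPM in kidney (median 64.4) and 0.52, 0.57, 0.38 and 0.3 TPM in GE/OB (log2FC 7.82 ± 0.24, edgeR adjusted p = 2.25e-11). The organs did not overlap for any of these. Fibrillar collagen followed, with *Col1a1* at 214 to 392 TPM in kidney (median 261) and 0.14, 0.33, 0.15 and 0.36 TPM in GE/OB (log2FC 10.65 ± 0.31, edgeR adjusted p = 1.75e-11) and *Col3a1* at 275 to 455 TPM in kidney (median 319.9) and 2.36, 2.68, 2.36 and 2.64 TPM in GE/OB (log2FC 7.65 ± 0.19, edgeR adjusted p = 4.86e-12). Kidney WT 8 was the highest library for both, and it also had the highest sum over the list (2697 TPM, against 1934 to 2112 in the other kidneys). *Ren1*, the renin gene, varied from 1.16 to 17.3 TPM in kidney (median 6.79) with 0 counts in GE/OB.

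Retinoid genes were higher in kidney in 14 of 17 cases, with 1 higher in GE/OB and 2 not called (median 2.68). *Dhrs3*, a retinal reductase, had 73.1 to 79 TPM in kidney (median 74.4) and 2.41, 1.85, 3.19 and 1.04 TPM in GE/OB (log2FC 5.76 ± 0.16, edgeR adjusted p = 9.64e-12). The binding protein gene *Crabp2* had 177 to 225 TPM in kidney (median 201) and 32.2, 22.3, 22.6 and 52.1 TPM in GE/OB (log2FC 3.25 ± 0.21, edgeR adjusted p = 2.1e-08). The receptor gene *Rarg* had 20.4 to 28.1 TPM in kidney (median 23) and 3.34, 4.5, 4.48 and 4.29 TPM in GE/OB (log2FC 3.23 ± 0.10, edgeR adjusted p = 2.65e-11). The exception was *Rxrg*, a retinoid X receptor of striatal neurons, with 7.65, 15.4, 14 and 5.85 TPM in GE/OB and 0.99 to 1.91 TPM in kidney (median 1.39) (log2FC -2.40 ± 0.28, edgeR adjusted p = 5.19e-06). For each of these 4 genes the ranges were separate.

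Epithelial junction and keratin genes were higher in kidney in 27 of 33 cases, higher in GE/OB in 2 and not called in 4 (median 5.17). *Cldn8*, a tight junction protein of the collecting duct, had 18.3 to 33.4 TPM in kidney (median 23.1) and 0 TPM in all 4 GE/OB libraries, at least 1230-fold higher. *Cldn6*, a claudin of early epithelia, had 35.2 to 67.4 TPM in kidney (median 48.6) and 0, 0.14, 0 and 0.07 TPM in GE/OB (log2FC 10.06 ± 0.29, edgeR adjusted p = 1.32e-11). *Krt19*, a keratin of simple epithelia, had 2.86 to 15 TPM in kidney (median 13.9) and 0 counts in GE/OB, at least 296-fold higher. The 2 exceptions were cadherins. N-cadherin (*Cdh2*), which joins neuroepithelial cells and also early nephron cells, had 226, 229, 215 and 233 TPM in GE/OB and 41.7 to 63.4 TPM in kidney (median 56) (log2FC -1.42 ± 0.09, edgeR adjusted p = 2.2e-08), and *Cdh4* had a log2FC of -1.86 ± 0.11 (edgeR adjusted p = 9.73e-09).

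Matrix and basement membrane genes were higher in kidney in 27 of 33 cases, higher in GE/OB in 3 and not called in 3 (median 2.64). *Col6a1*, a microfibril collagen, had 43.1 to 78.4 TPM in kidney (median 48.6) and 0.4, 0.3, 0.3 and 0.18 TPM in GE/OB (log2FC 8.30 ± 0.28, edgeR adjusted p = 6.17e-11). The 3 genes on the forebrain side encode proteoglycans. *Ncan*, a component of perineuronal matrix, had 139, 153, 134 and 146 TPM in GE/OB and 0.11 to 0.19 TPM in kidney (median 0.14) (log2FC -9.41 ± 0.07, edgeR adjusted p = 2.6e-15). *Bcan*, of the same family, had 5.75, 6.77, 4.34 and 4.82 TPM in GE/OB and 0 to 0.03 TPM in kidney (median 0.01) (log2FC -7.71 ± 0.34, edgeR adjusted p = 5.29e-10). *Agrn*, the proteoglycan agrin, had 180.5, 201, 169 and 188 TPM in GE/OB and 47.1 to 63.1 TPM in kidney (median 54.2) (log2FC -1.19 ± 0.05, edgeR adjusted p = 3.21e-10). Their ranges did not overlap.

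**Figure D4:**
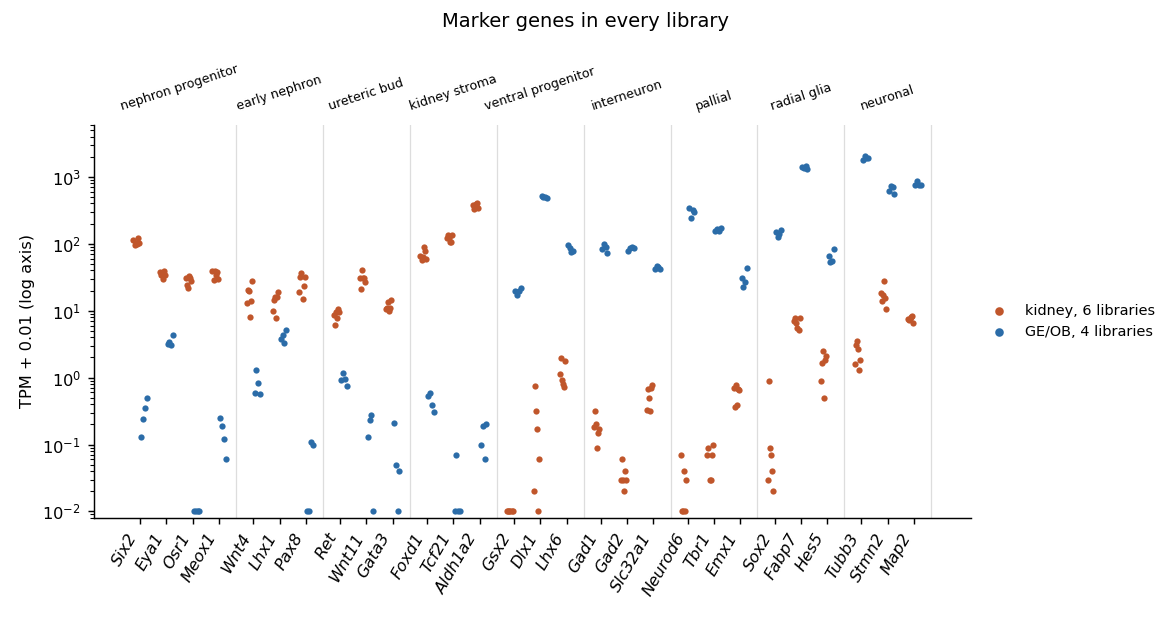
TPM + 0.01 (log axis) of marker genes for cell types of the kidney and the forebrain, with 1 point for each of the 6 kidney and 4 GE/OB libraries. *Six2* lies between 97.2 and 120.2 TPM in kidney and at or below 0.49 TPM in GE/OB, *Neurod6* lies between 242 and 340.0 TPM in GE/OB and at or below 0.06 TPM in kidney, and 1 kidney library stands above the others for *Sox2*.

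In GE/OB, transcription factor genes of the ganglionic eminences were higher in 24 of 27 cases, with 1 higher in kidney and 2 not called (median -7.70). *Dlx1*, a homeobox factor of interneuron production, had 522, 506, 497 and 477 TPM in GE/OB and 0 to 0.73 TPM in kidney (median 0.105) (log2FC -10.75 ± 0.41, edgeR adjusted p = 1.58e-10). *Gsx2*, a homeobox factor of the lateral ganglionic eminence, had 19.4, 17, 20 and 21.6 TPM in GE/OB and 0 TPM in all 6 kidney libraries, at least 900-fold higher in GE/OB. For both genes every GE/OB library lay above every kidney. *Nkx2-1*, of the medial ganglionic eminence, had 74.9, 47.8, 48.5 and 75.4 TPM in GE/OB and 0 to 0.05 TPM in kidney (median 0) (edgeR adjusted p = 1.04e-11). *Lhx8*, a LIM factor of cholinergic neurons, had 49.9, 42.5, 42.2 and 48.1 TPM in GE/OB and 0 TPM in all 6 kidney libraries, at least 2420-fold higher in GE/OB. The 2 KO libraries and the 2 WT libraries of GE/OB were interleaved for *Nkx2-1* and *Lhx8*.

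The forebrain factors were not all absent from kidney. *Nr2f2* (COUP-TFII), used in the caudal eminence and in mesenchyme, was the 1 member called higher in kidney, with 169.5 to 198 TPM in kidney (median 179) and 84.5, 109, 79.8 and 90.9 TPM in GE/OB (log2FC 1.51 ± 0.07, edgeR adjusted p = 1.56e-09), but it was below the fold minimum on the TPM scale. Its paralog *Nr2f1* was higher in GE/OB at 168, 167, 148 and 185 TPM in GE/OB and 47.7 to 62.4 TPM in kidney (median 50) (log2FC -1.16 ± 0.08, edgeR adjusted p = 2.67e-08). *Meis2*, a TALE homeobox factor, was abundant in both organs, with 307, 308, 327 and 298 TPM in GE/OB and 147 to 165 TPM in kidney (median 156), separate ranges and a log2FC of -0.51 ± 0.05 that was not called. *Foxp1* was not called either (log2FC -0.16 ± 0.09).

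Genes of GABA neurons were higher in GE/OB in 16 of 19 cases, with 1 higher in kidney and 2 not called (median -4.03). *Gad2*, an enzyme of GABA synthesis, had 78.4, 85.2, 88.3 and 85.8 TPM in GE/OB and 0.01 to 0.05 TPM in kidney (median 0.02) (log2FC -10.95 ± 0.11, edgeR adjusted p = 1.18e-14). *Lhx6*, which guides medial eminence interneurons, had 95.8, 86, 74.5 and 78.7 TPM in GE/OB and 0.71 to 1.96 TPM in kidney (median 1.01) (log2FC -5.49 ± 0.21, edgeR adjusted p = 1.32e-10). All 4 forebrain libraries lay far above the kidneys. *Calb2*, a calcium-binding protein of interneurons, had 21.6, 39.1, 35 and 35.2 TPM in GE/OB and 0 to 0.19 TPM in kidney (median 0.04) (log2FC -8.24 ± 0.33, edgeR adjusted p = 2.79e-10). *Pvalb*, *Vip* and *Cort*, markers of mature interneuron classes, had too few counts to be tested. The chemokine receptor gene *Cxcr4* had 34.3 to 52.6 TPM in kidney (median 46.6) and 29.8, 36.8, 30.6 and 30.7 TPM in GE/OB (log2FC 1.02 ± 0.10, edgeR adjusted p = 6.36e-07), with kidney and GE/OB ranges that overlapped. It was not called on the TPM scale, nor without GE/OB WT 1 or KO 7 or kidney WT 1 or KO 9 (log2FC 0.99, 0.94, 0.97 and 0.98).

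Genes of excitatory and olfactory bulb projection neurons formed the forebrain list with the most negative median, -9.34, with 18 of 19 genes higher in GE/OB, 0 higher in kidney and 1, *Cdhr1*, not called. A further member, *Tbx21*, had too few counts to be tested. *Neurod6*, a bHLH factor of pallial neurons, had 339.6, 242, 316 and 295 TPM in GE/OB and 0 to 0.06 TPM in kidney (median 0.01) (log2FC -13.21 ± 0.16, edgeR adjusted p = 3.62e-14). *Tbr1*, a T-box factor of glutamatergic neurons, had 154, 165, 156 and 170 TPM in GE/OB and 0.02 to 0.09 TPM in kidney (median 0.06) (log2FC -10.90 ± 0.11, edgeR adjusted p = 1.18e-14). *Eomes*, which marks intermediate progenitors, had 66.6, 50.7, 59.4 and 88.8 TPM in GE/OB and 0 to 0.02 TPM in kidney (median 0.005) (log2FC -12.04 ± 0.27, edgeR adjusted p = 2.26e-12). These markers of dorsal telencephalon were thus present in every GE/OB library, beside the ventral ones. The proneural factor gene *Neurog2* had 63.4, 39.1, 60.5 and 89.5 TPM in GE/OB, the neuronal bHLH factor gene *Neurod2* had 119.8, 107, 121 and 120 TPM in GE/OB, and both had at most 0.10 TPM in any kidney.

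Radial glia genes were higher in GE/OB in 13 of 20 cases, higher in kidney in 2 and not called in 5 (median -2.66). *Fabp7*, a fatty acid binding protein of radial glia, had 1402, 1336, 1444 and 1317 TPM in GE/OB and 5.08 to 7.88 TPM in kidney (median 6.69) (log2FC -7.10 ± 0.09, edgeR adjusted p = 3.62e-14). *Sox2*, a factor of neural stem cells, had 148, 125, 138 and 163 TPM in GE/OB and 0.01 to 0.89 TPM in kidney (median 0.045) (log2FC -9.22 ± 0.41, edgeR adjusted p = 6.29e-10). *Pou3f2*, a POU factor of neural progenitors, had 48, 42, 44.6 and 47.3 TPM in GE/OB and 0.02 to 0.03 TPM in kidney (median 0.03) (log2FC -10.06 ± 0.09, edgeR adjusted p = 4.27e-15). These 3 were separated in every library. *Vim*, *Prom1*, *Tnc*, *Hopx* and *Dbi* were not called. The members on the kidney side were *Hes1*, at 36.4 to 51.3 TPM in kidney (median 42.8) and 17.2, 14.8, 15.5 and 20.4 TPM in GE/OB (log2FC 1.92 ± 0.10, edgeR adjusted p = 2.84e-09), and *Mfge8*, at 71 to 94.1 TPM in kidney (median 86.8) and 50.6, 60.1, 53.3 and 41.9 TPM in GE/OB (log2FC 1.33 ± 0.10, edgeR adjusted p = 6.33e-08), of which *Mfge8* was below the fold minimum on the TPM scale.

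All 29 tested pan-neuronal genes were higher in GE/OB (median -5.45), with a summed level of 9600 to 11530 TPM in GE/OB and 208 to 245 TPM in kidney. *Tubb3*, neuronal tubulin, had 1783, 2075, 1890.3 and 1904 TPM in GE/OB and 1.29 to 3.5 TPM in kidney (median 2.28) (log2FC -9.14 ± 0.25, edgeR adjusted p = 9.76e-12). *Myt1l*, a repressor of non-neuronal genes, had 70.9, 89, 75.1 and 64.9 TPM in GE/OB and 0.01 to 0.03 TPM in kidney (median 0.01) (log2FC -11.95 ± 0.16, edgeR adjusted p = 6.22e-14). *Stmn2*, a growth cone protein, had 606, 739, 703 and 550.2 TPM in GE/OB and 10.8 to 28 TPM in kidney (median 16.2) (log2FC -4.68 ± 0.21, edgeR adjusted p = 6.06e-10), so some of these transcripts were present in kidney too. Ion channel and receptor genes were higher in GE/OB in 22 of 27 cases, with 0 higher in kidney and 5 not called (median -4.42). *Grin2b*, an NMDA receptor subunit, had 18.9, 23.2, 21.9 and 14.7 TPM in GE/OB and 0.01 to 0.13 TPM in kidney (median 0.03) (log2FC -8.99 ± 0.21, edgeR adjusted p = 2.5e-12).

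Splicing factor genes with tissue roles were divided, with 18 of 29 higher in GE/OB, 5 higher in kidney and 6 not called (median -2.39). *Srrm4*, which includes neuronal microexons, had 49.2, 47.1, 46.2 and 49.6 TPM in GE/OB and 0.03 to 0.17 TPM in kidney (median 0.075) (log2FC -8.96 ± 0.17, edgeR adjusted p = 5.73e-13). *Elavl3*, a neuronal RNA-binding protein, had 216, 239.9, 226 and 219 TPM in GE/OB and 0.07 to 0.29 TPM in kidney (median 0.155) (log2FC -9.96 ± 0.20, edgeR adjusted p = 1.09e-12). *Celf3*, of another RNA-binding family, had 192, 213, 189 and 199 TPM in GE/OB and 0.01 to 0.51 TPM in kidney (median 0.115) (log2FC -9.57 ± 0.26, edgeR adjusted p = 9.59e-12). On the kidney side, *Ptbp1*, which represses neuronal exons, had 372 to 433 TPM in kidney (median 407) and 205, 183, 175 and 221 TPM in GE/OB (log2FC 1.91 ± 0.06, edgeR adjusted p = 5.49e-11). The epithelial splicing regulator *Esrp1* had 6.65 to 10.3 TPM in kidney (median 8.37) and 0.06, 0.07, 0.03 and 0.08 TPM in GE/OB (log2FC 8.10 ± 0.22, edgeR adjusted p = 8.69e-12). The kidney and forebrain ranges were separate for all 5.

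In a list of 91 autosomal paralogs from families of developmental transcription factors, 69 were tested, of which 32 were higher in kidney, 29 higher in GE/OB and 8 not called (median 0.14, or -0.28 on the TPM scale). Of 16 families, 8 had called members in both directions (those of *Six2*, *Pax2*, *Lhx1*, *Tbx2*, *Foxc2*, *Meis1*, *Nr2f2* and *Sall1*). Another 3 had called members in kidney only (*Gata* and *Irx* among them), and 5 in GE/OB only (*Emx*, *Otx*, *Pou3f*, *Pbx* and *Dlx*).

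In the *Pax* family, *Pax2* and *Pax8* were on the kidney side (above) and *Pax6*, needed for eye and pallial development, was on the forebrain side with 78, 78.3, 80.9 and 106 TPM in GE/OB and 0.03 to 0.18 TPM in kidney (median 0.06) (log2FC -9.34 ± 0.18, edgeR adjusted p = 7.86e-13). In the *Lhx* family, *Lhx1* was higher in kidney and 5 paralogs were higher in GE/OB, among them *Lhx2*, a factor of cortical identity, with 105, 84.1, 85.9 and 130.5 TPM in GE/OB and 0.06 to 0.16 TPM in kidney (median 0.125) (log2FC -9.38 ± 0.21, edgeR adjusted p = 2.15e-12). In the T-box family, *Tbx2*, *Tbx3* and *Tbx18* were higher in kidney (log2FC 4.37, 6.01 and 4.96), and *Tbr1* and *Eomes* higher in GE/OB. The *Fox* family had 8 members higher in kidney (*Foxa1*, *Foxc1*, *Foxc2*, *Foxd1*, *Foxd2*, *Foxf1*, *Foxi1* and *Foxl1*) and others higher in GE/OB (*Foxf2*, *Foxj1* and *Foxp2* among them). Within it the paralogs *Foxf1* and *Foxf2* pointed in opposite directions, *Foxf1* at 0.32 to 0.87 TPM in kidney (median 0.48) and 0.18, 0.19, 0 and 0.23 TPM in GE/OB (log2FC 2.45 ± 0.50, edgeR adjusted p = 0.000641) and *Foxf2* at 3.71, 4.59, 4.81 and 4.16 TPM in GE/OB and 0 to 0.15 TPM in kidney (median 0.03) (log2FC -6.12 ± 0.43, edgeR adjusted p = 4.18e-08), though *Foxf1* was low and was not called on the TPM scale.

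The *Sall* family had *Sall1* on the kidney side and *Sall3*, at 12.9, 12.6, 11.5 and 15.2 TPM in GE/OB and 0.09 to 0.42 TPM in kidney (median 0.415) (log2FC -4.70 ± 0.20, edgeR adjusted p = 4.93e-10), and *Sall4*, at 1.43, 1.21, 1.89 and 1.99 TPM in GE/OB and 0.14 to 0.72 TPM in kidney (median 0.195) (log2FC -2.46 ± 0.22, edgeR adjusted p = 4.97e-07), on the forebrain side. In the *Meis* family, *Meis1* had 79.6 to 100.3 TPM in kidney (median 86.9) and 33, 36.1, 31.9 and 33.8 TPM in GE/OB (log2FC 1.91 ± 0.09, edgeR adjusted p = 7.38e-10) and *Meis3* had 72.9, 79.2, 76.3 and 73.9 TPM in GE/OB and 17.4 to 19.6 TPM in kidney (median 18.1) (log2FC -1.40 ± 0.05, edgeR adjusted p = 1.69e-10). Beside *Six2*, its paralogs *Six4* and *Six5* were higher in kidney and *Six3* in GE/OB. On the TPM scale *Sall1* and *Nr2f2* kept the direction but missed the call.

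**Figure D5:**
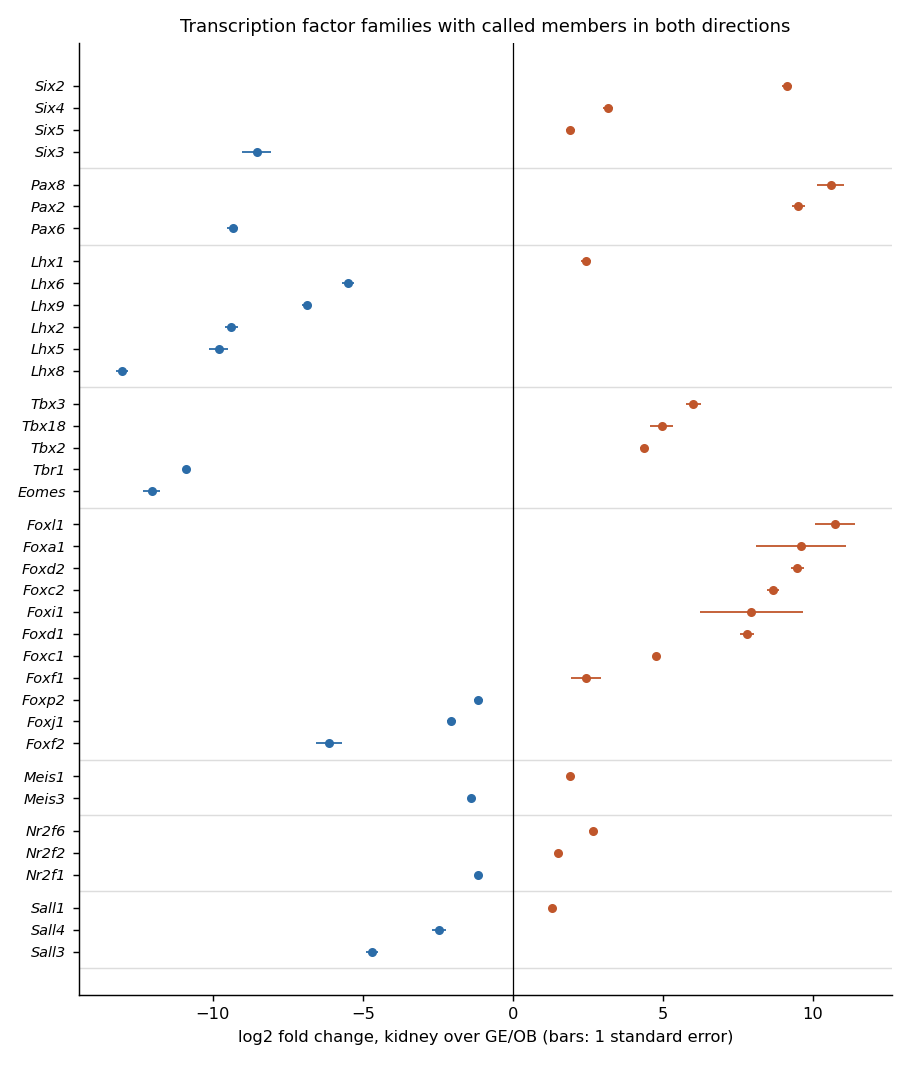
Log2 fold change (kidney over GE/OB, bars of 1 standard error) of called members of the 8 families with calls in both directions, grouped by family. Each family has points on both sides of 0, among genes with over 3 counts in each organ from *Eomes* at -12.04 to *Pax2* at 9.52, and for genes with 0 to 3 counts in 1 organ (*Foxl1*, *Foxa1*, *Foxi1*, *Foxd2*, *Pax8*, *Lhx5* and *Lhx8*) the fitted value depends on the prior count.

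Wnt ligands, receptors and inhibitors were higher in kidney in 30 of 46 cases, higher in GE/OB in 7 and not called in 9 (median 1.71). Among the ligands, *Wnt4* and *Wnt11* are given above, and *Wnt7a* was higher in GE/OB at 32.2, 34.8, 30.4 and 33.5 TPM in GE/OB and 0 to 0.14 TPM in kidney (median 0.065) (log2FC -8.18 ± 0.18, edgeR adjusted p = 2.06e-12). Among the receptors, *Ror1* had 8.48 to 13.2 TPM in kidney (median 11) and 0.12, 0.25, 0.1 and 0.16 TPM in GE/OB (log2FC 6.61 ± 0.22, edgeR adjusted p = 4.74e-11). *Fzd3*, a frizzled receptor needed for axon tracts, had 45.3, 41.9, 36.1 and 45.3 TPM in GE/OB and 6.95 to 10 TPM in kidney (median 9.46) (log2FC -1.62 ± 0.09, edgeR adjusted p = 3.53e-09). *Dkk1*, an inhibitor, had 3.51 to 9.54 TPM in kidney (median 7.35) and 0.13, 0.19, 0.1 and 0.13 TPM in GE/OB (log2FC 6.19 ± 0.30, edgeR adjusted p = 1.39e-09). *Axin2*, a general target of the pathway, was not called (log2FC 0.37 ± 0.07).

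Notch pathway genes leaned to the forebrain, with 11 of 22 higher in GE/OB, 4 higher in kidney and 7 not called (median -0.76). The ligand gene *Dll3* had 15.6, 13.7, 15.8 and 21.4 TPM in GE/OB and 0.03 to 0.33 TPM in kidney (median 0.13) (log2FC -6.52 ± 0.29, edgeR adjusted p = 5.59e-10). The ligand-like *Dner* had 117, 146, 127 and 105 TPM in GE/OB and 0.33 to 0.57 TPM in kidney (median 0.39) (log2FC -7.62 ± 0.12, edgeR adjusted p = 1.85e-13). Of the targets, *Hes5* was higher in GE/OB at 66.2, 53.3, 55.2 and 82.7 TPM in GE/OB and 0.49 to 2.51 TPM in kidney (median 1.74) (log2FC -4.70 ± 0.22, edgeR adjusted p = 8.84e-10). By contrast, the targets *Hes1* (above) and *Heyl*, at 14.4 to 24.5 TPM in kidney (median 19.6) and 3.09, 4.34, 3.09 and 3.07 TPM in GE/OB (log2FC 3.13 ± 0.12, edgeR adjusted p = 2.22e-10), were higher in kidney. *Hey2* also was, but with overlapping ranges of 2.42 to 5.51 TPM in kidney (median 3.19) and 2.41, 3, 1.83 and 2.08 TPM in GE/OB, and it was not called on the TPM scale.

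Hedgehog pathway genes had 5 of 13 members higher in kidney, 1 higher in GE/OB and 7 not called (median 0.44, or -0.20 on the TPM scale). Over all tested genes 45.6% were called. The ligand gene *Shh* was higher in GE/OB at 5.83, 5.42, 4.12 and 6.3 TPM in GE/OB and 0.35 to 1.83 TPM in kidney (median 0.925) (log2FC -1.80 ± 0.35, edgeR adjusted p = 0.000453). The target *Gli1* was higher in kidney at 21.8 to 27.8 TPM in kidney (median 26.3) and 5.48, 5.93, 5.02 and 4.94 TPM in GE/OB (log2FC 2.85 ± 0.10, edgeR adjusted p = 6.85e-11), as was *Gas1*, a co-receptor, at 81.3 to 131 TPM in kidney (median 109.9) and 13.7, 12.1, 18 and 27 TPM in GE/OB (log2FC 3.23 ± 0.21, edgeR adjusted p = 2.3e-08). *Ptch1*, the receptor and a target, had a log2FC of 0.17 ± 0.07 and was not called. For the ligand gene *Dhh*, kidney WT 3 stood apart at 2.30 TPM, against 0.19 to 0.44 TPM in the other kidneys. Its call (log2FC 1.93 ± 0.78, edgeR adjusted p = 0.0343) was lost without GE/OB WT 1, WT 3 or KO 7 (log2FC 1.70, 1.60 and 1.97).

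BMP pathway genes were higher in kidney in 16 of 30 cases, higher in GE/OB in 6 and not called in 8 (median 1.05). The ligand genes *Bmp4*, at 7.29 to 12.1 TPM in kidney (median 9.35) and 0.07, 0.13, 0.08 and 0.14 TPM in GE/OB (log2FC 7.22 ± 0.33, edgeR adjusted p = 8.57e-10), and *Bmp7*, at 28.4 to 34.9 TPM in kidney (median 32.6) and 1.19, 2.66, 1.83 and 1.83 TPM in GE/OB (log2FC 4.66 ± 0.13, edgeR adjusted p = 9.33e-12), were on the kidney side. The antagonist genes *Nog*, at 6.69, 5.09, 6.48 and 5.62 TPM in GE/OB and 0.42 to 0.82 TPM in kidney (median 0.58) (log2FC -2.70 ± 0.20, edgeR adjusted p = 7.58e-08), and *Fst*, at 6.68, 8.77, 9.14 and 7.69 TPM in GE/OB and 0.91 to 1.77 TPM in kidney (median 1.28) (log2FC -2.07 ± 0.18, edgeR adjusted p = 3.38e-07), were on the forebrain side. Among target genes, *Id3* had 164 to 235 TPM in kidney (median 195) and 12.1, 13.4, 13.1 and 16.4 TPM in GE/OB (log2FC 4.44 ± 0.14, edgeR adjusted p = 3.52e-11) and *Id4* had 137, 124, 122 and 157 TPM in GE/OB and 7.35 to 11.6 TPM in kidney (median 9.84) (log2FC -3.20 ± 0.12, edgeR adjusted p = 1.08e-10), so these paralogs went in opposite directions. The ranges did not overlap for any of the 6 genes.

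Axon guidance ligands and receptors had 20 of 43 members higher in GE/OB, 10 higher in kidney and 13 not called (median -0.63). *Dcc*, a netrin receptor, had 64.1, 65.3, 56.8 and 76 TPM in GE/OB and 0.21 to 0.4 TPM in kidney (median 0.36) (log2FC -7.10 ± 0.13, edgeR adjusted p = 5.01e-13). Its ligand gene *Ntn1* was higher in kidney at 62.4 to 107 TPM in kidney (median 89.5) and 29.9, 31.8, 29.7 and 31.3 TPM in GE/OB (log2FC 2.11 ± 0.16, edgeR adjusted p = 9.71e-08). *Epha5*, an ephrin receptor, had 104, 97.3, 94.9 and 99.5 TPM in GE/OB and 0.32 to 1.19 TPM in kidney (median 0.59) (log2FC -6.60 ± 0.22, edgeR adjusted p = 5.19e-11). *Sema3d*, a semaphorin, had 30.4 to 50.7 TPM in kidney (median 40.1) and 0.39, 0.74, 0.53 and 0.67 TPM in GE/OB (log2FC 6.69 ± 0.22, edgeR adjusted p = 4.84e-11). *Ephb4*, a receptor of veins, had 41.8 to 57.6 TPM in kidney (median 55.8) and 11.9, 9.45, 9.72 and 13.4 TPM in GE/OB (log2FC 2.87 ± 0.11, edgeR adjusted p = 2.31e-10). Ligand and receptor of the netrin pair were therefore higher in different organs.

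Housekeeping proteins with tissue paralogs were exchanged in part. Of 24 tested tubulin and sodium pump genes, 9 were higher in GE/OB, 5 higher in kidney and 10 not called (median -0.26). *Tubb2b* was the most abundant of those named, with 3979, 4437, 4284 and 4016 TPM in GE/OB and 137 to 164 TPM in kidney (median 149.7) (log2FC -4.20 ± 0.07, edgeR adjusted p = 2.57e-13). *Tubb6* was higher in kidney at 46.6 to 57.7 TPM in kidney (median 49.7) and 9.72, 12.9, 11.4 and 10.5 TPM in GE/OB (log2FC 2.77 ± 0.10, edgeR adjusted p = 8.13e-11). Among 27 glycolysis genes 11 were higher in kidney, 4 higher in GE/OB and 12 not called (median 0.84, or 0.12 on the TPM scale). The 4 included isozymes typical of brain, with *Aldoc* at 49.4, 49.1, 61.1 and 54.7 TPM in GE/OB and 1.15 to 1.88 TPM in kidney (median 1.58) (log2FC -4.64 ± 0.14, edgeR adjusted p = 1.55e-11), *Eno2* at 23.8, 38.7, 35.4 and 29.3 TPM in GE/OB and 2.24 to 3.85 TPM in kidney (median 3.67) (log2FC -2.60 ± 0.16, edgeR adjusted p = 1.65e-08), and *Pfkp* and the glucose transporter *Slc2a3* at log2FC of -3.61 ± 0.16 and -1.40 ± 0.08. Nuclear respiratory chain genes had 5 of 15 members higher in kidney, 1 higher in GE/OB and 9 not called (median 0.87, or 0.28 on the TPM scale), beside 45.6% called over all tested genes. On the TPM scale 3 were higher in kidney and 2 higher in GE/OB. *Ndufa4*, a subunit gene, had 1079.7 to 1409 TPM in kidney (median 1317) and 569, 538, 577 and 534 TPM in GE/OB (log2FC 1.81 ± 0.07, edgeR adjusted p = 3.04e-10).

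Proliferation genes had 11 of 32 members higher in kidney, 1 higher in GE/OB and 20 not called (median 0.78, or 0.14 on the TPM scale). The share called over all tested genes was 45.6%. *Mki67* and *Top2a*, markers of cycling cells, had log2FC of 0.14 ± 0.09 and 0.14 ± 0.07. Cyclins and inhibitors separated more. *Ccnd3*, a G1 cyclin, had 149 to 158 TPM in kidney (median 156) and 31.2, 30.5, 28.6 and 33.2 TPM in GE/OB (log2FC 2.85 ± 0.06, edgeR adjusted p = 6.98e-13). *Ccne1*, a cyclin of S phase entry, had 46.9 to 59.8 TPM in kidney (median 53.8) and 13, 12.9, 13.8 and 16 TPM in GE/OB (log2FC 2.68 ± 0.09, edgeR adjusted p = 6.92e-11). *Cdkn1b*, a cyclin-dependent kinase inhibitor, was higher in GE/OB at 118, 104, 105 and 110.2 TPM in GE/OB and 19.5 to 25.7 TPM in kidney (median 21.2) (log2FC -1.72 ± 0.08, edgeR adjusted p = 9.59e-10), while its paralog *Cdkn1c* was higher in kidney (above).

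Genes of cells that both organs share, or that a dissection can carry along, differed as well. Endothelial genes were higher in kidney in 11 of 17 cases, higher in GE/OB in 1 and not called in 5 (median 1.26, or 0.63 on the TPM scale), and their summed levels were 259 to 382 TPM in kidney and 211 to 224 TPM in GE/OB. *Emcn*, an endothelial mucin, had 26.7 to 39.5 TPM in kidney (median 30) and 4.99, 4.32, 3.89 and 3.96 TPM in GE/OB (log2FC 3.43 ± 0.12, edgeR adjusted p = 8.11e-11). *Plvap*, of fenestrated vessels, had 13.8 to 27.4 TPM in kidney (median 15.9) and 2.31, 2.19, 2.42 and 4.42 TPM in GE/OB (log2FC 3.27 ± 0.19, edgeR adjusted p = 9.16e-09). The 1 gene on the other side was *Mfsd2a*, a lipid transporter of the blood-brain barrier, with 22.5, 21.6, 20.4 and 21.9 TPM in GE/OB and 1.89 to 3.38 TPM in kidney (median 2.59) (log2FC -2.58 ± 0.09, edgeR adjusted p = 7.08e-11). *Kdr*, a defining endothelial receptor, was not called, with 8.94 to 15.9 TPM in kidney (median 10.8) and 11.8, 13.2, 11.5 and 10.8 TPM in GE/OB.

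Macrophage genes had 5 of 15 members higher in kidney, 1 higher in GE/OB and 9 not called (median 0.73, or 0.11 on the TPM scale), beside 45.6% called over all tested genes. *Csf1r*, a defining receptor, had 2.9 to 4.82 TPM in kidney (median 4.09) and 5.44, 6.67, 5.82 and 4.96 TPM in GE/OB, with a log2FC of 0.07 ± 0.15. *P2ry12*, of microglia, was the 1 gene on the forebrain side, at 4.58, 5.32, 4.91 and 4.22 TPM in GE/OB and 0.2 to 0.65 TPM in kidney (median 0.415) (log2FC -2.94 ± 0.26, edgeR adjusted p = 3.82e-07). Globin and erythroid genes were higher in kidney in 12 of 12 cases (median 1.91), where 8 remained called on the TPM scale. Summed levels were 7076 to 15300 TPM in kidney and 3209 to 3838 TPM in GE/OB, with the highest sum in kidney WT 3. The embryonic globin gene *Hbb-y* had 1995 to 3062 TPM in kidney (median 2408) and 770.3, 496, 603 and 1036 TPM in GE/OB (log2FC 2.37 ± 0.20, edgeR adjusted p = 2.87e-07). *Hba-a1* with *Hba-a2*, and *Hbb-bt* with *Hbb-bs*, share reads, so their separate values are uncertain.

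Skeletal muscle genes were higher in kidney in 13 of 16 cases, with 0 higher in GE/OB and 3 not called (median 3.83), at summed levels of 79.3 to 147 TPM in kidney and 11.3 to 16.3 TPM in GE/OB. *Des*, the filament of all muscle types, had 36.6 to 42.5 TPM in kidney (median 38.3) and 0.61, 0.23, 0.44 and 0.24 TPM in GE/OB (log2FC 8.04 ± 0.10, edgeR adjusted p = 3.65e-14). *Tnni1*, a slow muscle troponin, had 9.19 to 14.7 TPM in kidney (median 12.5) and 0, 0.14, 0 and 0.32 TPM in GE/OB (edgeR adjusted p = 7.46e-11). *Myog*, which defines differentiating muscle, had 0.37 to 3.57 TPM in kidney (median 1.86) and 0 counts in GE/OB. Of 15 liver plasma protein genes 5 were tested and 4 of these were higher in kidney, and the list summed to 7.55 to 27.1 TPM in kidney and 4.34 to 7.5 TPM in GE/OB. *Alb*, its defining marker, had 0.35 to 4.96 TPM in kidney (median 0.88) and 0, 0.03, 0 and 0 TPM in GE/OB. The part of carried-over tissue in the kidney values was not tested.

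Of the remaining lists, neural crest and Schwann cell genes had 8 of 12 members tested, of which 6 were higher in kidney, 1 (*Fabp7*) higher in GE/OB and 1 (*Sox10*) not called (median 3.25). *Erbb3*, the neuregulin receptor, had 4.23 to 7.11 TPM in kidney (median 5.77) and 0.07, 0.39, 0.18 and 0.08 TPM in GE/OB (log2FC 5.41 ± 0.29, edgeR adjusted p = 3.13e-09). *Sox10*, its defining marker, was at 0.02 to 3.86 TPM in kidney (median 0.18) and 1.09, 1.8, 0.81 and 0.97 TPM in GE/OB, and the highest kidney value was that of WT 3, without which it was called higher in GE/OB (log2FC -2.50). Adrenal genes had 4 of 9 tested members higher in kidney, 4 higher in GE/OB and 1 not called. Among the defining markers, *Cyp11a1*, a steroidogenic enzyme, was untested at 0.12 to 0.30 TPM in kidney. *Dbh* was called higher in kidney, at 0.04 to 2.01 TPM in kidney (median 0.51) and 0 counts in GE/OB, at least 29.8-fold higher. Gonad genes had 1 of 4 tested members higher in kidney and 3 higher in GE/OB, and the defining *Amh* was untested at 0 to 0.29 TPM in kidney. Choroid plexus and meninges genes had 7 of 13 higher in kidney, 5 higher in GE/OB and 1 not called (median 2.57). Of their defining markers, *Ttr* was low in both organs, with 0.38, 0.36, 2.21 and 0.58 TPM in GE/OB and 0 to 1.12 TPM in kidney (median 0.605), and was not called (log2FC 0.09 ± 0.70). The others were called higher in kidney. *Folr1* had 5.29 to 7.01 TPM in kidney and at most 0.61 TPM in GE/OB (log2FC 5.75 ± 0.34). *Clic6* had 0.69 to 1.06 TPM in kidney and at most 0.33 TPM in GE/OB (log2FC 2.57 ± 0.23). Summed levels of these lists were 35.3 to 59.7 TPM (neural crest), 46.4 to 56.3 TPM (adrenal), 1.88 to 4.75 TPM (gonad) and 1510 to 1714 TPM (choroid plexus and meninges) in kidney, and 1325 to 1452, 116 to 136, 24.1 to 31.4 and 194 to 236 TPM in GE/OB. The neural crest sum in GE/OB was carried by *Fabp7*, and over the other 11 genes of that list it was 8.24 to 10.6 TPM in GE/OB and 29.8 to 51.8 TPM in kidney. Members shared with lists of other kinds enter further sums. The choroid plexus and meninges sum includes *Aldh1a2* (329 to 405 TPM in kidney), and the gonad sum includes *Fst* (6.68 to 9.14 TPM in GE/OB). A sum is therefore no measure of the tissue that its list is named for.

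Some genes were on in one organ and off in the other. By a level of at least 1 TPM in every library of one organ and below 0.1 TPM in every library of the other, 126 autosomal genes were on in kidney alone, of which 107 were protein-coding. By the same rule 168 were on in GE/OB alone, of which 128 were protein-coding. The larger number in GE/OB depended on the rule. By CPM there were 153 in kidney and 98 in GE/OB, and with off set at exactly 0 TPM there were 69 and 27. Hox genes made up 28 of the 126, and the next of the lists were epithelial genes and the transcription factor families with 4 each. In GE/OB, 9 genes were pallial, 8 were in the transcription factor families and 7 were factors of the ganglionic eminence, lists that share genes. The highest in kidney were *Hoxa10*, *Tcf21*, *Wt1*, *Hoxd11* and *Hoxa11os*, with mean levels from 72.1 to 130 TPM, and among the highest in GE/OB were *Neurod6*, *Tbr1*, *A930011O12Rik* and *Gad2*, with means from 84.4 to 298 TPM. *A930011O12Rik* is annotated without a described function, and it had 129, 139, 131 and 117 TPM in GE/OB and 0 to 0.08 TPM in kidney (median 0) (log2FC -12.31 ± 0.23, edgeR adjusted p = 5.12e-13). *Sncb*, encoding beta-synuclein, was the other gene beside *Lhx8* with 0 counts in kidney among the 10 protein-coding genes with the largest differences towards GE/OB, at 35.9, 56.1, 53 and 36.8 TPM in GE/OB and at least 1640-fold higher there. Most of these genes stood outside the lists described above, 75 of the 126 and 142 of the 168.

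Gene length varied with the direction of the difference. The genomic span had a median of 18.5 kb among genes higher in kidney, 31.9 kb among genes higher in GE/OB and 23.4 kb over all tested genes. Spans over 100 kb made up 12.1%, 25.8% and 14.4% of these. When genes were put into 10 bins by span, in the bin with the longest spans (median 227 kb), 44.0% were higher in GE/OB and 18.7% higher in kidney, with a median log2 fold change of -0.67. In the bin with the shortest spans (median 2.62 kb) the median was 0.41. Effective transcript length gave the same order, from a median log2 fold change of 0.74 in the shortest bin (0.628 kb) to -0.47 in the longest (6.53 kb). RNA integrity also differed between the organs, in the direction stated above, and its part in this trend was not tested.

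Ribosomal protein genes, which are short and abundant, were higher in kidney in 66 of 69 tested cases and in GE/OB in 0 (median log2 fold change 1.68, range -0.22 to 2.37). *Rpl24*, *Rpl5* and *Rpl7a* were not called. They took 18.4% to 19.6% of all TPM in kidney and 8.21% to 9.07% in GE/OB, without overlap. With these genes left out, the medians by transcript length still ran from 0.68 in the shortest bin to -0.46 in the longest.

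The difference between the organs was then compared between WT and KO embryos by the interaction of tissue and genotype. It passed an adjusted p of 0.05 (edgeR) for 1 autosomal gene, and an unadjusted p under 0.05 was found for 427 genes, 2.81% of those tested. This gene, *Duxbl1*, a double homeobox gene, had GE/OB levels of 0 and 0 TPM in WT 1 and WT 3 and of 4.70 and 2.75 TPM in KO 2 and KO 7. In kidney it had 3.45, 2.08 and 2.78 TPM in WT 1, WT 3 and WT 8 and 0.79, 0.43 and 1.15 TPM in KO 7, KO 9 and KO 10. KO exceeded WT in the forebrain and WT exceeded KO in kidney, without overlap in either (interaction -11.57 ± 1.05 on the log2 scale, edgeR adjusted p = 0.0102). With 0 TPM in both WT libraries of GE/OB, the size of this interaction and its standard error depend on the prior count. *Duxbl1* belongs to a group of near-identical copies, among which reads can be split, so its values are uncertain, and in GE/OB genotype and sex cannot be told apart. The number of such genes was 0 when GE/OB WT 1, GE/OB WT 3, kidney WT 1, kidney WT 3 or kidney KO 7 was left out, 2 without kidney WT 8, and 7 by DESeq2. Near *Duxbl1* on chromosome 14, *Tmem254a*, *Tmem254b* and *Duxbl3* had interactions of -2.43, -2.43 and -2.16 on the log2 scale. They did not pass (edgeR adjusted p = 0.373, 0.373 and 0.461), and whether this region changed as a whole was not tested.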

How the data were processed

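The authors sequenced poly(A)-selected, non-stranded libraries as paired ends, and ran RSEM with bowtie2 on the mm10 genome, 1 library per embryo (versions not given in the sources used here). Per the file headers, the deposited tables hold expected counts per gene, not normalized, the deposited TPM values, and effective lengths. Expected counts need not be whole, because reads that fit several genes are divided, and they were rounded here before fitting. Gene positions were taken from GENCODE vM21 (GRCm38), and promoter sequences from RefSeq GRCm38.p6.

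Differences were tested with edgeR 4.0.16 in R 4.3.3 (TMM factors, filterByExpr by tissue, tissue and genotype as terms, quasi-likelihood test) on the counts of 10 libraries, with Benjamini-Hochberg adjustment over all 15860 tested genes of all chromosomes. Calls needed an adjusted p under 0.05 and an absolute log2 fold change of at least 1, and a standard error is the absolute log2 fold change over the root of the F statistic. The p-values measure the spread between embryos of 1 litter per organ. A fold against an organ with 0 counts is a lower bound, from a floor of 3 counts over its libraries, and where the lower organ held 1 to 3 counts only levels are given. Floors cover counting error only.

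The comparison, the 37 gene lists (820 autosomal genes) and the alternatives were chosen with earlier results of these data known, so list counts are descriptions. The genes named are the defining markers of each list, the 4 called members per list with the largest change at a mean of at least 5 TPM and up to 4 in the opposite direction, the 10 protein-coding genes with the largest change in each direction at a mean of at least 10 TPM, the 5 highest genes on in 1 organ, families with calls in both directions, and genes of the interaction. Some genes that this rule names are not reported here. A few further list members are named for their known role or because they were not called, after their values were seen. In simulated counts for 15636 genes with this design, 84%, 88%, 100% and 100% of genes changed by 1.5-, 2-, 4- and 8-fold were recovered at an adjusted p under 0.05 with no fold minimum, and 6.5% of the calls were false. Only 50 genes were changed at each fold. In the real comparison 87.1% of autosomal genes differed, so these rates may not hold there. The planned promoter motif shares are not given, because only 75.6% of tested genes had a promoter sequence, so that check is void. Embryo numbers do not pair the libraries, since the organs came from different litters. Alternatives were DESeq2 1.42.0, limma 3.58.1 on log2(TPM + 0.5), other scalings, filters, terms and subsets of embryos, and each library left out in turn.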

Additional observations from a re-analysis of the deposited data

Results flagged for a closer look

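In 26 of 412 groups of 4 or 6 libraries tested (6.31%), the highest or the lowest library stood apart from the rest of its own organ by Dixon's criterion, and chance gives about 1 in 20. Only groups whose highest library reached 1 TPM were examined. Kidney WT 3 accounted for 7 of them. It was the highest kidney for the Schwann cell gene *Sox10* (3.86 TPM, next highest 0.45), for *Dhh* (2.30, next 0.44), for *Zic1* (1.27, next 0.14) and for *Hba-a1* (1583, next 876). The same embryo's kidney was the lowest for *Cdh2* (41.7, next 55.6), for *Ephb4* (41.8, next 52.0) and for the summed guidance genes (598 TPM, next 747).

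Kidney WT 8 accounted for 6. This library was the highest for *Col1a1* (392 TPM, next 269), *Col3a1* (455, next 334), *Col6a1* (78.4, next 50.3), *Nr2f1* (62.4, next 51.1) and the summed stroma genes (2697, next 2112), and the lowest for *Hoxd10* (25.0, next 29.1).

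In the other kidneys, KO 7 was the highest for the podocyte genes *Nphs1* (1.59 TPM, next 0.59) and *Ptpro* (1.64, next 0.55). KO 10 was the highest for *Smo* (81.4, next 75.1) and for the summed endothelial genes (381.5, next 301). In KO 9, *Foxa1* was the lowest (0.17, next 1.53).

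In GE/OB, KO 2 was the highest for *Cxcr4* (36.8 TPM, next 30.7), *Heyl* (4.34, next 3.09) and the summed stroma genes (156.8, next 143.5), and the lowest for *Neurod2* (107.2, next 119.8). KO 7 was the highest for *Pax6* (105.6, next 80.9) and for *Plvap*, a gene of fenestrated vessels (4.42, next 2.42). WT 3 was the highest for *Ttr* (2.21, next 0.58) and the lowest for *Th* (3.23, next 5.45). The difference between organs depended on genotype for *Duxbl1* (interaction -11.57 on the log2 scale, a size that depends on the prior count), with values given above.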

How the results depend on the processing

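Litter equals organ, GE/OB has 4 libraries, and genotype equals sex there, so a tissue difference cannot be told apart from a litter difference. Many genes under about 1 TPM rest on few counts, but long transcripts hold more (*Magi2*, mean 0.97 TPM, 866 counts over the kidneys).

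Without a fold minimum, 6801 genes were higher in kidney and 6442 in GE/OB. On the TPM scale, an alternative chosen after seeing the data, 1968 were higher in kidney (4990 in GE/OB), and the medians of 3 lists changed sign (podocyte -0.405, hedgehog -0.203, transcription factor families -0.28). Under all other alternatives run the counts stayed within 1.5 times the reported ones, from 3080 (test against the fold minimum) to 4340 (weakest filter) for kidney and from 2933 to 4107 for GE/OB. Leaving out 1 library in turn gave 3475 to 3733 and 3297 to 3470, and 557 to 583 called list members (569 reported).

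With the replicate block over embryos 1, 3 and 7, 3474 and 3187 genes were called, and 3476 and 3186 in the same 6 libraries without it (added after seeing the data). Numbers shared between the organs do not pair the libraries (correlations of deviations 0.015, 0.030 and -0.074). The median of the adrenal list (0.90 reported) was -0.363 with the block and -0.36 without it, and -0.383 to 0.951 with 1 library left out, below 0 without kidney WT 3, KO 7, WT 8 or KO 10 (-0.369, -0.345, -0.368 and -0.383).

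The interaction count was 7 by DESeq2, 0 at an adjusted p under 0.01, and 0 to 2 with 1 library left out. Genes on in 1 organ numbered 42 (kidney), 40 (GE/OB) and 82 in all at 5 and 0.05 TPM, and 69, 27 and 96 at 1 TPM against exactly 0. By CPM there were 98 in GE/OB (153 in kidney). With 1 library left out the ranges were 126 to 144, 171 to 199 and 300 to 325. No named gene reversed under any alternative, 19 missed the call on the TPM scale, where *Podxl* gained it, and DESeq2 gave no adjusted p for *Dlx1*, *Sox2*, *Zic1* and *Sox10*.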
